A study of Mus musculus with 12 samples.

Results

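The fibroblast chemokines described here are 10 mouse genes chosen by symbol from the deposited table of 32544 gene rows: Ccl2, Ccl5 and Ccl7 of the CC family, Cxcl1, Cxcl5, Cxcl10, Cxcl12, Cxcl14 and Cxcl16 of the CXC family, and Cx3cl1 of the CX3C family. Of these, 9 passed the filter on low counts, as did 14279 genes in all, and Cxcl14 did not. The cells were 3T3, a mouse fibroblast line, and RNA was sequenced in bulk from 4 groups of 3 libraries. One group was untreated. The other groups received, for 24 h, extracellular vesicles (EVs, particles enclosed in a lipid membrane) from the human breast cancer line MDA-MB-468, and differ by the donor cells: a control line (shCon EV), a line with CRIPTO knocked down (shCr EV) and a line that overexpressed CRIPTO (CrOE EV). CRIPTO is a cell-surface co-receptor of the TGF-beta family. It was altered in the donor cells and not in the fibroblasts, so the libraries hold no check of the knockdown or the overexpression. The 3 libraries of the CrOE EV group were matched to their columns by elimination, because those columns carry the protein's name alone. All fibroblasts were 1 cell line, no group received vesicles from a non-cancer donor, and the labels do not say that replicates were separate cultures, so p-values measure the spread between libraries, which may be technical.

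Chemokines are small secreted proteins that bind G protein-coupled receptors and direct the movement of leukocytes. Fibroblasts are a major tissue source of them: Ccl2 and Ccl7 attract monocytes, Cxcl1 and Cxcl5 attract neutrophils through Cxcr2, Cxcl12 retains and attracts cells that carry Cxcr4, and Cxcl10 attracts T cells through Cxcr3. Cxcl16 and Cx3cl1 are made as membrane-anchored proteins that ADAM proteases can shed. NF-kB drives many inflammatory chemokine genes, and interferon acts on Cxcl10 through the interferon-stimulated response element (ISRE).

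Library totals were 25960054 to 37774020 estimated counts, and libraries of a group correlated at r = 0.986 to 0.994 over the genes tested. All 10 fibroblast markers were measured, and their summed level was 19252 to 20746 CPM (counts scaled to a fixed total per library) with no EVs, 24430.5 to 24766 with shCon EVs, 15102 to 17255 with shCr EVs and 8470.0 to 8847 with CrOE EVs, where Lum was at the detection floor of 3 counts. The 5 myeloid markers summed to 3.49 to 10.5 CPM in any library, with Adgre1, which defines macrophages, at the floor in every group. The 4 T cell markers summed to at most 0.842 CPM, the 4 endothelial markers to at most 2.56 and the 6 epithelial markers to at most 1.55, with Epcam at 0. The fibroblast marker sum and the chemokine levels both moved with the CrOE EV group, and its part in the chemokine values was not tested. In bulk RNA, fewer cells that express a gene and less RNA per cell cannot be told apart.

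RefSeq promoter windows (build GRCm38.p6, 250 bases before to 50 after the start) were found for 5 of the 10 genes. Those of Cxcl1, Cxcl10 and Cxcl12 are shown because they hold different motif matches; of shCon and shCr EVs, Cxcl1 was called lower after the former, Cxcl12 after the latter and Cxcl10 after neither, while all 3 were called lower after CrOE EVs. Capitals mark matches to the NF-kB decamer consensus (kappaB), the ISRE (GAAA, any 2 bases, GAAA), the TATA box TATAAA and the GC box GGGCGG, on either strand. The windows lie at chr5:90890995-90891294 on the plus strand for Cxcl1, at chr5:92348840-92349139 on the minus strand for Cxcl10 and at chr6:117168285-117168584 on the plus strand for Cxcl12, and each is written 5′ to 3′ on the strand of its gene.
Cxcl1: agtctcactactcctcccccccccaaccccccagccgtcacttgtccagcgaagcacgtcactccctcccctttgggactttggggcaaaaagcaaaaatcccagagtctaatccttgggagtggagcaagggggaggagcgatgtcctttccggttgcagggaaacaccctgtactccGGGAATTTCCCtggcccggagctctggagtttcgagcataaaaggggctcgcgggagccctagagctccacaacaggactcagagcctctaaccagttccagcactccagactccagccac
Cxcl10: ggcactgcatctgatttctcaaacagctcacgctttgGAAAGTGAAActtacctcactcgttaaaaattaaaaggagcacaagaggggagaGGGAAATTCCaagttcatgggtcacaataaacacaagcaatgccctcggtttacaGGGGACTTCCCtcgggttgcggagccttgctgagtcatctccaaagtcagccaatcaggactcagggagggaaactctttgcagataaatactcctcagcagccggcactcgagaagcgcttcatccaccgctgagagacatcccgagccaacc
Cxcl12: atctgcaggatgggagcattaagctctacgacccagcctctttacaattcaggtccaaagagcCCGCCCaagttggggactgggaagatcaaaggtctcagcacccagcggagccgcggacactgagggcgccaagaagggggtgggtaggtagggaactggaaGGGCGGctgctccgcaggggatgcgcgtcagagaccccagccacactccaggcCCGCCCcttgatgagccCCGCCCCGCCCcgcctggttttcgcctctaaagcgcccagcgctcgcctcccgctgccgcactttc
The Cxcl1 window held 1 kappaB stretch of 11 bases, formed by overlapping matches on both strands that begin -71 and -70 bases from the start. The Cxcl10 window held kappaB stretches at -159 and -104, an ISRE match at -213 and a match to the AP-1 letters TGANTCA at -74, which is not in capitals. The Cxcl12 window held 5 GC boxes, 2 of them sharing bases, and no kappaB or ISRE match. Among all 32851 windows of this length, 8.46% held the kappaB consensus, 3.44% the ISRE, 7.81% the AP-1 letters, 13.6% the TATA box and 35.7% the GC box. The letters TTCNNNGAA (GAS, 8.30% of windows) and TATAAA were in none of the 3 windows shown. Of the windows not shown, that of Cx3cl1 held TATAAA at -6 and a GC box at -27. That of Cxcl14, which was not tested, held GAS letters at -191, an ISRE match at -172 and 3 GC boxes. A match describes letters and does not show that a factor binds.

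CrOE EVs were followed by the broadest change. After them 8 of the 9 chemokines were lower than in untreated cells and 1, Ccl5, was higher, in the quasi-likelihood F-test of edgeR, with Benjamini-Hochberg adjustment over all genes (a call is an adjusted p under 0.05). Among all genes tested 73.7% were called in this comparison, 36.7% higher and 37% lower, so a call by itself was common. The 8 that fell did so by at least 2-fold, which 29.7% of all genes reached in either direction. The median log2 fold change of the 9 chemokines was -1.72, against 0.01 over all genes. The libraries of the 2 groups did not overlap in any of the 9, and 77.7% of all genes did not overlap. The summed level of the 9 chemokines was 3716 ± 199 CPM (SD, n = 3) with no EVs, 2964 ± 5.85 with shCon EVs, 3072 ± 410 with shCr EVs and 725 ± 66.0 with CrOE EVs.

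**Figure D1:**
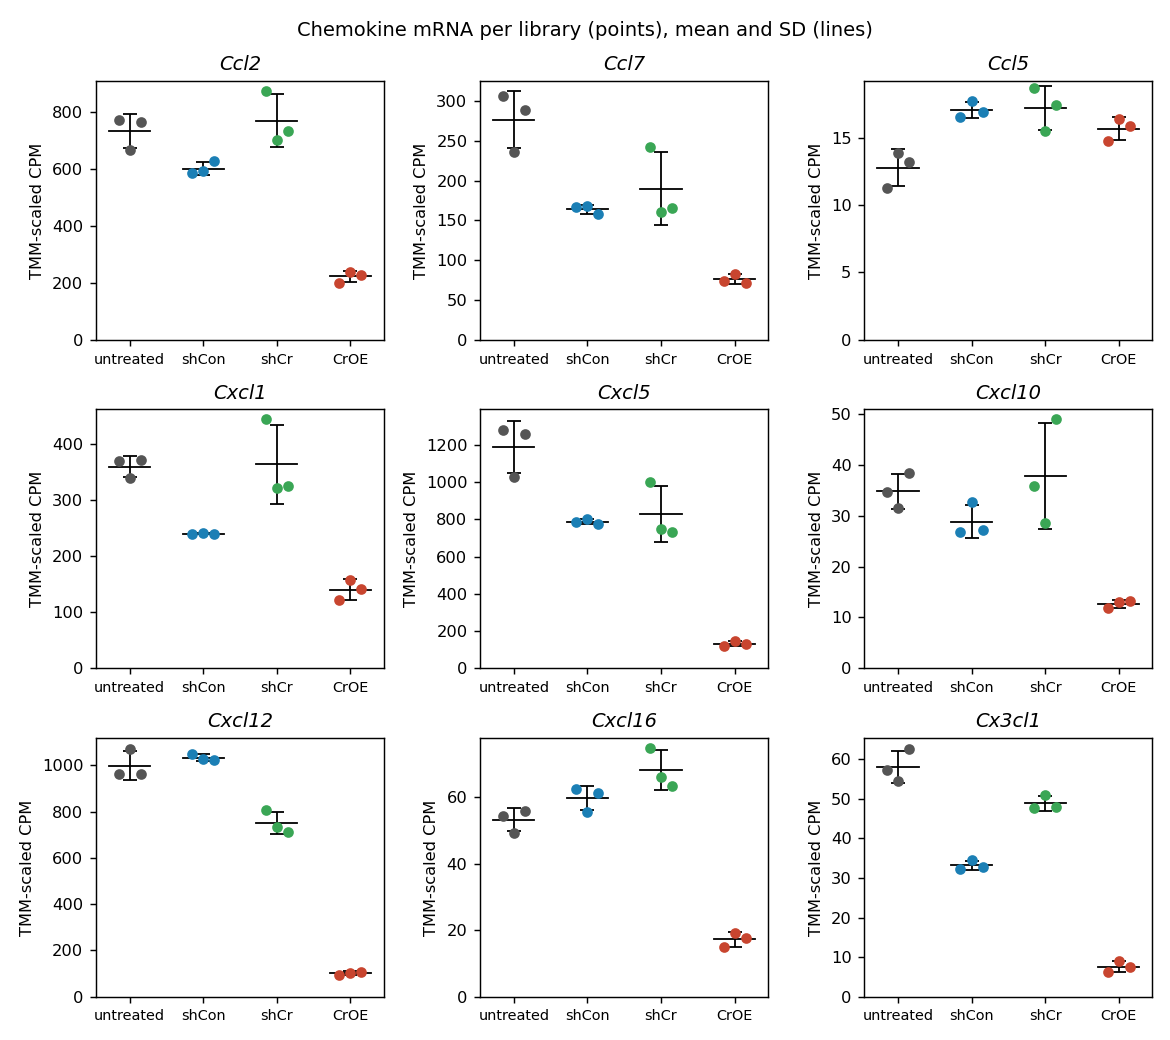
Level of each chemokine in each library, in TMM-scaled CPM on a linear axis that starts at 0, for untreated cells and the 3 EV groups; points are libraries, lines are the mean and SD of 3 libraries. The CrOE EV libraries lie below all others for every chemokine but Ccl5, and Ccl5 is lowest in untreated cells.

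Ccl2 and Ccl7, the monocyte attractants, lie side by side on chromosome 11 in GENCODE M21, with no other protein-coding gene between them. Ccl2 was measured at 772, 665 and 763 CPM with no EVs, 583, 590.2 and 626 with shCon EVs, 874, 699 and 732 with shCr EVs and 201, 239.6 and 227 with CrOE EVs. The CrOE EV libraries were the lowest and did not overlap with any other group, while shCr EV and untreated libraries overlapped. Ccl2 fell by 1.72 on the log2 scale after CrOE EVs (SE 0.09, adjusted p = 2.46e-09), which leaves 0.303 of the untreated level. After shCon EVs it fell by 0.29 (SE 0.09, adjusted p = 0.024), and this call was lost without untreated replicate 1 or 3 or shCon EV replicate 1 or 2 (adjusted p 0.0747 to 0.08). After shCr EVs the log2 difference from untreated cells was 0.07 (95% interval -0.13 to 0.26), which was no call.

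Ccl7 was measured at 306, 236 and 289 CPM with no EVs, 166, 168 and 158 with shCon EVs, 243, 161 and 165 with shCr EVs and 73.6, 83.1 and 71.8 with CrOE EVs. It was highest in untreated cells and lowest after CrOE EVs, and 1 shCr EV library, replicate 1, lay within the untreated range. Ccl7 fell in all 3 comparisons with untreated cells, with log2 fold changes of -0.75 for shCon EVs (SE 0.14, adjusted p = 0.00101), -0.55 for shCr EVs (SE 0.14, adjusted p = 0.00775) and -1.86 for CrOE EVs (SE 0.14, adjusted p = 8.26e-08).

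Among the 9 chemokines tested, Ccl5, which attracts T cells and monocytes, was the one called higher after all 3 kinds of EV. It was measured at 11.3, 13.9 and 13.2 CPM with no EVs, 16.5, 17.7 and 16.9 with shCon EVs, 18.7, 15.5 and 17.4 with shCr EVs and 14.7, 16.3 and 15.9 with CrOE EVs, on 308 to 656 counts per library. Every EV library lay above every untreated library. Ccl5 rose by 0.42 after shCon EVs (SE 0.09, adjusted p = 0.00352), by 0.43 after shCr EVs (SE 0.09, adjusted p = 0.00274) and by 0.29 after CrOE EVs (SE 0.09, adjusted p = 0.0118). The last call was lost without untreated replicate 1 (adjusted p = 0.0633). Among the EV groups Ccl5 made no call: the log2 difference was 0.01 (95% interval -0.19 to 0.21) between shCr and shCon EVs and -0.12 (-0.32 to 0.07) between CrOE and shCon EVs.

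Cxcl1 and Cxcl5, the neutrophil attractants, lie in 1 run of chemokine genes on chromosome 5 that also holds Ppbp, Pf4, Cxcl3, Cxcl15 and Cxcl2. Cxcl1 was measured at 369, 338 and 370.5 CPM with no EVs, 239, 242 and 239.6 with shCon EVs, 445, 322 and 325 with shCr EVs and 121, 158 and 141 with CrOE EVs. The shCon EV libraries lay within 3 CPM of each other and below every untreated and shCr EV library. Cxcl1 fell with log2 fold changes of -0.58 for shCon EVs (SE 0.12, adjusted p = 0.00194) and -1.36 for CrOE EVs (SE 0.12, adjusted p = 3.18e-07). After shCr EVs the difference was 0.02 (95% interval -0.24 to 0.27), no call, and the libraries overlapped with untreated ones.

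Cxcl5 was measured at 1282, 1029.8 and 1259 CPM with no EVs, 788, 803 and 774 with shCon EVs, 1002, 746 and 734 with shCr EVs and 119, 145 and 131 with CrOE EVs. All untreated libraries lay above all EV libraries, and all CrOE EV libraries lay below the rest. Cxcl5 fell in all 3 comparisons with untreated cells, with log2 fold changes of -0.59 for shCon EVs (SE 0.12, adjusted p = 0.0017), -0.52 for shCr EVs (SE 0.12, adjusted p = 0.00371) and -3.18 for CrOE EVs (SE 0.13, adjusted p = 1.37e-10), the last a 9.04-fold lower level. The CrOE EV intervals of these neighbours do not overlap: -1.62 to -1.10 for Cxcl1 and -3.46 to -2.90 for Cxcl5.

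Cxcl12, the homeostatic ligand of Cxcr4, was measured at 961, 1069 and 962 CPM with no EVs, 1051, 1026 and 1022 with shCon EVs, 805, 735 and 713 with shCr EVs and 92.4, 103 and 109 with CrOE EVs. Untreated and shCon EV libraries overlapped, shCr EV libraries lay below both, and CrOE EV libraries lay below all. Cxcl12 fell by 3.30 after CrOE EVs (SE 0.08, adjusted p = 9.41e-13), 9.83-fold, the largest log2 fold change of the 9 chemokines against untreated cells, and its interval of -3.46 to -3.13 overlaps that of Cxcl5. It fell by 0.41 after shCr EVs (SE 0.07, adjusted p = 0.000496). After shCon EVs the difference was 0.05 (95% interval -0.10 to 0.20), which was no call.

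Cxcl10, an interferon-induced ligand of Cxcr3, was measured at 34.6, 31.5 and 38.3 CPM with no EVs, 26.8, 32.6 and 27.2 with shCon EVs, 35.8, 28.5 and 49.0 with shCr EVs and 11.8, 13.0 and 13.3 with CrOE EVs. The CrOE EV libraries alone were set apart, and the shCr EV libraries spread most. Cxcl10 fell by 1.45 after CrOE EVs (SE 0.17, adjusted p = 3.81e-06). It made no call after shCon EVs (log2 difference -0.27, 95% interval -0.61 to 0.08), though a model of those 2 groups alone gave an adjusted p of 0.044, and none after shCr EVs (0.12, -0.22 to 0.46). Its exons overlap those of Art3 on the opposite strand in GENCODE M21. Whether strand was used in counting is not given in the sources used here. Reads in the overlapping stretch therefore cannot be assigned to 1 of the 2 genes with certainty, and the same holds for Cxcl16 and Zmynd15.

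Cxcl16, a transmembrane ligand of Cxcr6, was measured at 54.3, 49.4 and 55.9 CPM with no EVs, 62.4, 55.4 and 61.3 with shCon EVs, 74.8, 65.9 and 63.4 with shCr EVs and 14.8, 19.1 and 17.8 with CrOE EVs. The shCr EV libraries lay above the others and the CrOE EV libraries below. Cxcl16 rose by 0.35 after shCr EVs (SE 0.09, adjusted p = 0.00801) and fell by 1.62 after CrOE EVs (SE 0.10, adjusted p = 5.59e-09). The difference after shCon EVs was 0.17 (95% interval -0.03 to 0.36), no call.

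Cx3cl1, the transmembrane ligand of Cx3cr1, was measured at 57.1, 54.4 and 62.5 CPM with no EVs, 32.2, 34.5 and 32.8 with shCon EVs, 47.6, 50.9 and 47.9 with shCr EVs and 6.37, 8.99 and 7.44 with CrOE EVs. No 2 groups overlapped: the order was untreated, shCr EV, shCon EV and CrOE EV. Cx3cl1 fell with log2 fold changes of -0.81 for shCon EVs (SE 0.09, adjusted p = 1.99e-05) and -2.93 for CrOE EVs (SE 0.10, adjusted p = 2.99e-11), the latter 7.61-fold. After shCr EVs it fell by 0.25 (SE 0.09, adjusted p = 0.0439), a call lost without untreated replicate 1 or 3 or shCr EV replicate 2 or 3 (adjusted p 0.0581 to 0.159).

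Cxcl14, a homeostatic chemokine, had 0 or 1 counts in each of the 12 libraries, and was not tested. The floor of 3 counts was 0.0795 to 0.114 CPM, so levels under that were not detectable at this depth. A floor covers counting error alone, as the labels mention no molecular identifiers.

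**Figure D2:**
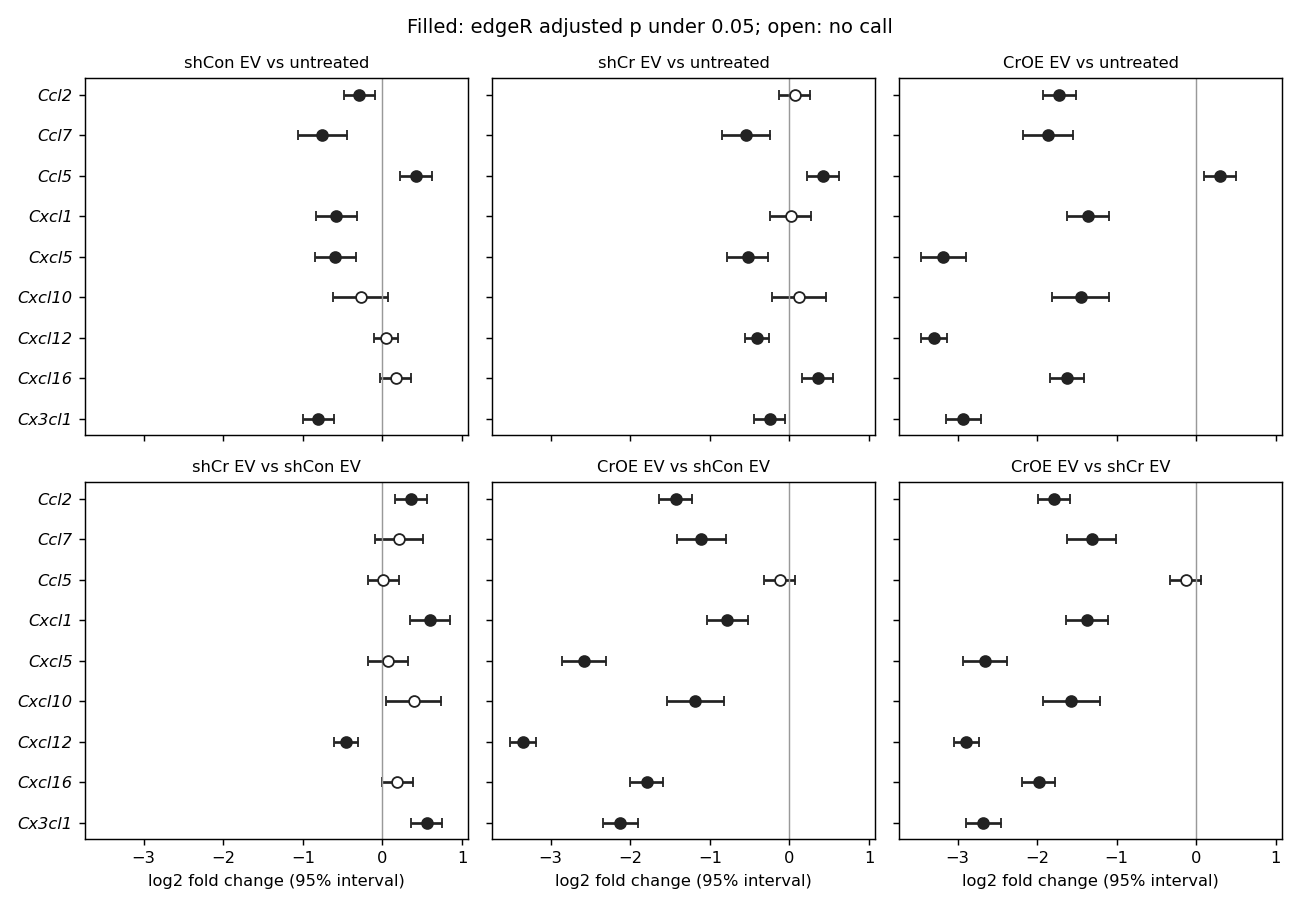
Log2 fold change of the 9 chemokines tested in each of the 6 pairs of groups, with the 95% interval; filled points are calls at an adjusted p under 0.05 and open points are not. Ccl5 is the one gene without a fall in the comparison of CrOE EV and untreated cells, and the values of shCr EV against shCon EV lie between -0.46 and 0.60.

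Set against untreated cells, shCon EVs gave calls in 6 of the 9 chemokines, 1 higher (Ccl5) and 5 lower (Ccl2, Ccl7, Cxcl1, Cxcl5 and Cx3cl1), where 38.1% of all genes tested were called, 18% higher and 20.2% lower. None of these changes reached 2-fold, which 6.04% of all genes did. The median log2 fold change was -0.29 over the 9 chemokines and 0.01 over all genes. After shCr EVs 2 were higher (Ccl5 and Cxcl16) and 4 lower (Ccl7, Cxcl5, Cxcl12 and Cx3cl1), where 37.3% of all genes were called, 18.4% higher and 18.8% lower, and the median was 0.02 over the 9 and over all genes. Again none reached 2-fold, which 6.28% of all genes did. The 3 comparisons with untreated cells share those 3 control libraries.

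The direct comparison of shCr EV with shCon EV sets vesicles of the CRIPTO knockdown line against those of the control line. CRIPTO knockdown cannot be told apart here from other differences between these lines or their vesicles. In this comparison 4 of 9 chemokines made calls, 3 higher and 1 lower. Over all genes tested 8.73% were called, 5.22% higher and 3.51% lower. Cxcl1 was 1.51-fold higher after shCr EVs (log2 fold change 0.60, SE 0.12, adjusted p = 0.0076). Cx3cl1 was 1.47-fold higher (0.56, SE 0.09, adjusted p = 0.00218), and neither overlapped between the groups. Cxcl12 fell by 0.46 (SE 0.07, adjusted p = 0.00132), to 0.727 of its level after shCon EVs. Ccl2 was 1.28-fold higher (0.36, SE 0.09, adjusted p = 0.0301), also without overlap, but this call was lost without any 1 of the 3 shCon EV libraries (adjusted p 0.0666 to 0.116), without shCr EV replicate 1 (0.0555) and in a model of the 2 groups alone (0.0661).

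No call was at least 2-fold, as 0.756% of all genes were. The other 5 chemokines made no call. Their log2 differences were 0.01 for Ccl5, 0.21 for Ccl7 (95% interval -0.09 to 0.51), 0.07 for Cxcl5 (-0.19 to 0.33), 0.39 for Cxcl10 (0.05 to 0.73, adjusted p = 0.159) and 0.19 for Cxcl16 (-0.01 to 0.38). Cxcl10 passed the threshold without shCr EV replicate 2 (0.56, adjusted p = 0.0298), and its difference was 0.16 without shCr EV replicate 3. Among the chemokines called lower after shCon EVs, Cxcl1 and Cx3cl1 were higher after shCr than after shCon EVs with any 1 library left out. Ccl7 and Cxcl5 made no call. Both comparisons use the same shCon EV libraries, and low values there favour both results, so the second is not independent of the first.

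CrOE EV was also set against shCon EV. By its name, shCon is the control of the knockdown, and no group holds a control for the overexpressing line. CRIPTO overexpression therefore cannot be told apart here from other differences between these donor lines. CrOE EV against shCon EV gave calls in 8 of 9 chemokines, all lower, where 72.6% of all genes were called and 36.1% were lower. The log2 fold change of Cxcl12 was -3.35 (SE 0.08, adjusted p = 1.22e-12), a 10.2-fold lower level, that of Cxcl5 was -2.58 (SE 0.13, adjusted p = 9.64e-10) and that of Cx3cl1 was -2.12 (SE 0.10, adjusted p = 7.7e-10). The log2 fold change was -1.79 for Cxcl16, -1.43 for Ccl2, -1.18 for Cxcl10 and -1.11 for Ccl7. The smallest fall among the calls was that of Cxcl1, -0.78 (SE 0.12, adjusted p = 6.16e-05), or 1.71-fold. Of the 8 that fell 7 did so by at least 2-fold, which 27.2% of all genes reached. Ccl5 made no call (adjusted p = 0.236), but did in a model of the 2 groups alone (log2 fold change -0.16, adjusted p = 0.0313). CrOE EV against shCr EV also gave 8 calls, all lower, where 73.9% of all genes were called and 37% were lower. There the log2 fold changes of the 8 ran from -2.89 for Cxcl12 to -1.32 for Ccl7, each at least 2-fold (29.6% of all genes), and Ccl5 again made no call (-0.13, 95% interval -0.33 to 0.06).

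Divided by the length of all exons of a gene, the levels can be compared between genes. In untreated cells Ccl2 stood at 645 ± 52.3 CPM per kb and Cxcl5 at 639 ± 74.9, and their libraries overlapped. Ccl7 followed at 346 ± 45.2, Cxcl1 at 192 ± 9.67 and Cxcl12 at 122 ± 7.59. Cxcl16, Cxcl10, Cx3cl1 and Ccl5 stood between 13.3 and 17.6, and each overlapped with the next. After CrOE EVs Ccl2 was still the highest at 196 ± 17.2, then Ccl7 at 95.1 ± 7.59, Cxcl1 at 74.7 ± 9.88 and Cxcl5 at 70.7 ± 6.93, of which the last pair overlapped. Ccl5, last in untreated cells, stood at 16.3 ± 0.878 after CrOE EVs, above Cxcl12 at 12.4 ± 1.02. This order rests on the length used. With the median length of protein-coding transcripts, Ccl2 stayed first in all 4 groups, but Cx3cl1 rose from 14.8 to 123 CPM per kb in untreated cells, above Cxcl10, Ccl5 and Cxcl16, and after CrOE EVs Cxcl12 at 32.4 stood above Ccl5 at 29.4.

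**Figure D3:**
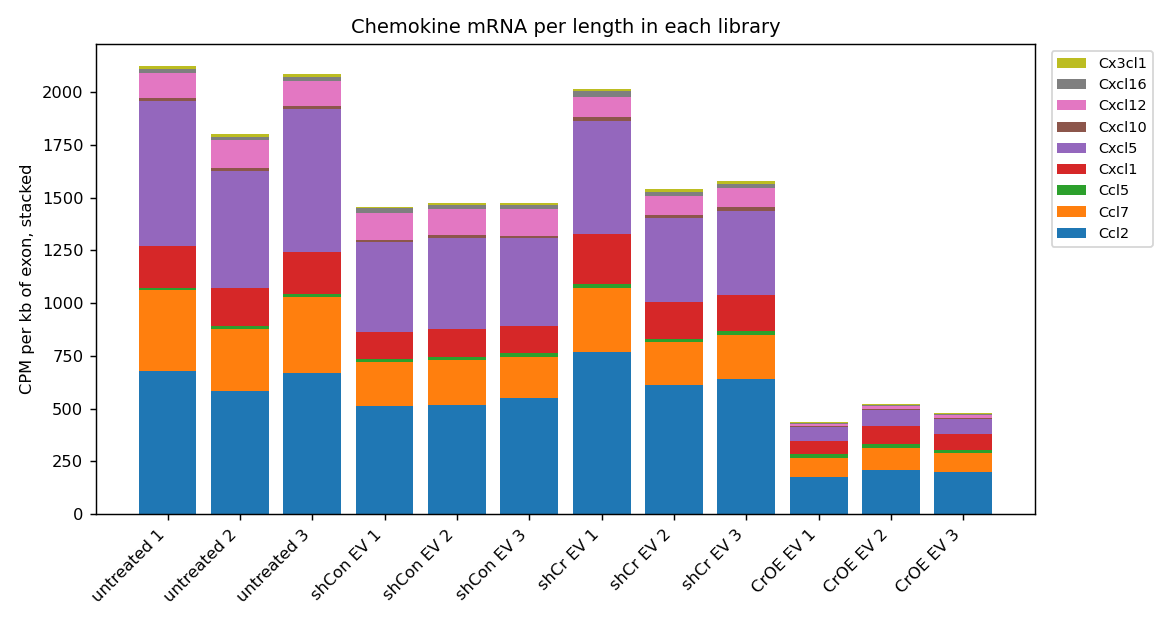
Level of the 9 chemokines per kb of exon in each of the 12 libraries, stacked, in CPM per kb on a linear axis from 0. The stacks are lowest in the 3 CrOE EV libraries. Ccl2 and Cxcl5 together make up most of the stack in every group. After CrOE EVs the mean share of Cxcl5 (14.8%) is below those of Ccl7 (19.9%) and Cxcl1 (15.6%).

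As a share of this summed level per length, Ccl2 made up 32.2% ± 0.232 (SD, n = 3) with no EVs, 35.9% ± 1.24 with shCon EVs, 39.6% ± 1.37 with shCr EVs and 40.9% ± 0.686 with CrOE EVs. Cxcl5 made up 31.8% ± 0.998, 28.8% ± 0.542, 25.9% ± 0.839 and 14.8% ± 0.147 in the same order, and Cxcl12 6.14% ± 0.965, 8.60% ± 0.187, 5.42% ± 0.484 and 2.60% ± 0.184. Ccl5 made up 0.671% ± 0.125 in untreated cells and 3.42% ± 0.130 after CrOE EVs. These shares rest on the length used, and without division by length they differ: as a share of the summed CPM, Ccl2 made up 19.7%, 20.2%, 25.0% and 30.7% in the same order, Cxcl5 32.0%, 26.6%, 26.8% and 18.1%, and Cxcl12 27.0%, 34.8%, 24.6% and 14.0%, so that Cxcl12 was the largest after shCon EVs. On both scales the shares of Cxcl5 and Cxcl12 were lower, and that of Ccl2 higher, after CrOE EVs than in untreated cells.

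Within groups, libraries differed in some chemokines together. The deviations of log2 CPM from the group means correlated at r = 0.84 to 0.96 over the 12 libraries for the 6 pairs of Ccl2, Ccl7, Cxcl1 and Cxcl5, and at 0.63 to 0.85 for these 4 with Cxcl16. With Ccl5, Cxcl10, Cxcl12 and Cx3cl1 the same 4 gave r = 0.11 to 0.56. Pairs among the other 5 ran from -0.16 (Cxcl10 with Cxcl12) to 0.63 (Cxcl16 with Cx3cl1). The 4 were set by name and not by a rule, so these values describe the grouping and do not test it. In the shCon EV libraries the 4 did not share the sign of their deviations. The points share libraries, and these correlations are a description. Replicate 1 of the shCr EV group was the highest of its group for 7 of the 9 chemokines, untreated replicate 2 was the lowest of its group for 7, and CrOE EV replicate 1 was the lowest of its group for 8. Ccl7 had a coefficient of variation of 24.2% in the shCr EV group and 3.44% in the shCon EV group, and Cxcl5 had 18.2% and 1.81%. Without shCr EV replicate 1 the log2 difference between shCr and shCon EVs was -0.01 for Ccl7 and -0.09 for Cxcl5, neither a call.

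**Figure D4:**
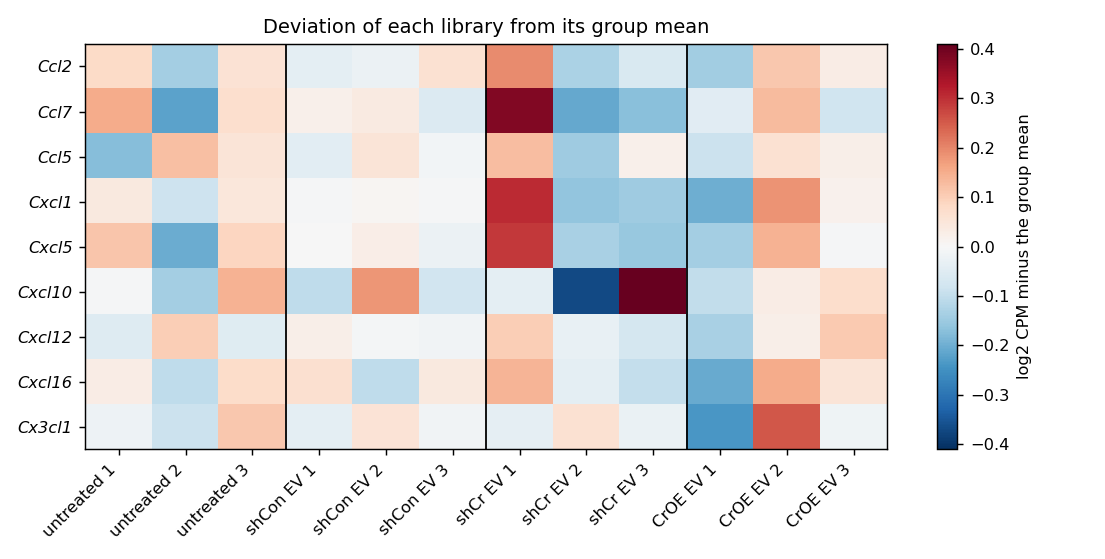
Deviation of each library from the mean of its group in log2 CPM, for the 9 chemokines (1 axis) in the 12 libraries (the other axis); red is above and blue below the group mean. Ccl2, Ccl7, Cxcl1 and Cxcl5 share their colours within most libraries, and shCr EV replicate 1 is above its group mean in these 4.

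The genes whose log2 CPM followed each chemokine most closely over the 12 libraries were named by a rule, as a description; the 12 points fall into 4 groups, and CrOE EV libraries stand far from the rest for most of them. For Cxcl12 these were Serpine2, a secreted protease inhibitor, and Fbln2, a matrix protein (r = 0.998 and 0.997). For Cxcl5 they were Slc44a1 and the growth factor gene Fgf7 (both r = 0.998), and for Cx3cl1 Map3k5 (r = 0.998) and Ptges (r = 0.996), the latter a prostaglandin E synthase. For Ccl2 they were Glt8d2 (r = 0.997) and Ube2h (r = 0.995), for Ccl7 Ikbip (r = 0.994) and Slc25a4 (r = 0.993), for Cxcl1 Grk5 (r = 0.989) and Smdt1 (r = 0.988), and for Cxcl16 Fbxo6 (r = 0.997) and Bace2 (r = 0.995). Cxcl10 with Ndn (r = 0.974) and Gnb5 (r = 0.973), and Ccl5 with Mcur1 (r = 0.913) and Gng2 (r = 0.909), had the lower values.

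Of 28 other chemokine genes 14 passed the low-count filter. After CrOE EVs 2 of them were higher and 9 lower than in untreated cells, with a median log2 fold change of -1.91 (0.01 over all genes), where 36.7% of all genes were higher and 37% lower. With at least 10 counts in every library, which leaves fewer genes to test, the counts were 1 higher and 3 lower. Some of the 14 passed the filter only through groups where they were higher, which favours a fall after CrOE EVs. Ccl3, for example, had 1 to 4 counts per library after CrOE EVs and 39 to 66 after shCr EVs. Ccl9, a monocyte and dendritic cell attractant next to Ccl5 on chromosome 11, stood at 54.5 ± 8.39 CPM with no EVs, 14.0 ± 0.827 with shCon EVs, a mean of 20.0 ± 6.32 with shCr EVs and 1.16 ± 0.108 with CrOE EVs, and fell by 5.55 in the last (SE 0.23, adjusted p = 2.03e-10). Ccl8, in the same run of genes as Ccl2 and Ccl7, rose by 0.48 after shCon EVs (SE 0.14, adjusted p = 0.0177) and fell by 4.46 after CrOE EVs (SE 0.19, adjusted p = 2.03e-10). Ppbp, next to Cxcl5, was lower after all 3 kinds of EV, with a log2 fold change of -4.22 for CrOE EVs (SE 0.25, adjusted p = 5.08e-09). It had 120 to 154 counts per library with no EVs and only 6 to 16 after CrOE EVs. Ccl20 stood at a mean of 0.162 CPM with no EVs, 0.445 with shCon EVs, 1.23 with shCr EVs and 1.85 with CrOE EVs. Its untreated libraries, at most 0.221 CPM, lay below every EV library, on at most 74 counts per library. After shCon EVs 2 of the 14 were higher and 3 lower, and after shCr EVs 4 were higher and 4 lower, where 38.1% and 37.3% of all genes were called. The first count was 1 without untreated replicate 1 or 3 or shCon EV replicate 1, and the count of 4 higher was 2 without untreated replicate 3. Between shCr and shCon EVs Ccl3 and Ccl20 were higher (log2 fold change 1.35 and 1.45, adjusted p = 0.0128 and 0.00566) and none was lower; they fall outside the naming rule, were named after their values were seen, and had at most 66 and 40 counts in these libraries. That count was 1 without shCon EV replicate 1 or 3 or shCr EV replicate 2.

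Chemokine receptors were sparse in these fibroblasts, and 6 of 23 passed the filter. Ackr3, a scavenging receptor for Cxcl12, was at 31.6 ± 2.84 CPM with no EVs, 15.5 ± 1.06 with shCon EVs, 14.6 ± 1.03 with shCr EVs and 1.93 ± 0.407 with CrOE EVs. Its log2 fold changes against untreated cells were -1.03, -1.11 and -4.02 (SE 0.11, 0.11 and 0.13, adjusted p = 1.01e-05, 4.28e-06 and 1.77e-11). Ackr3 and Cxcl12 were both called lower after shCr and CrOE EVs. After shCon EVs Ackr3 was called lower and Cxcl12 was not (log2 difference 0.05). Cxcr3, the receptor of Cxcl10, had 0 counts in all libraries, and Cxcr2, the receptor of Cxcl1 and Cxcl5, was at 1.33 to 1.72 CPM in group means. In all, 1 receptor was higher and 1 lower after shCon EVs and likewise after shCr EVs, and 0 were higher and 2 lower after CrOE EVs. Over all genes 38.1%, 37.3% and 73.7% were called, so the counts were near the background after shCon and shCr EVs and below it after CrOE EVs. The higher count after shCon EVs was 2 or 3 without any 1 untreated library or shCon EV replicate 3, and the lower count was 2 without shCon EV replicate 2. The higher count after shCr EVs was 2 without any 1 untreated library and 4 without shCr EV replicate 1. After CrOE EVs 1 or 2 were higher without untreated replicate 1 or 2 or CrOE EV replicate 2, and 1 was lower without untreated replicate 3.

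Of 8 proteases that shed or cut chemokines 7 passed the filter. Adam17, which sheds Cx3cl1, was at 121 ± 2.81 CPM with no EVs, 166 ± 1.54 with shCon EVs, 197 ± 13.0 with shCr EVs and 101 ± 6.46 with CrOE EVs, and was called higher in the first 2 comparisons (log2 fold change 0.46 and 0.70) and lower in the last (-0.26, adjusted p = 0.00134). Adam10, which sheds Cxcl16 and Cx3cl1, fell by 0.40 after CrOE EVs (SE 0.09, adjusted p = 0.000917) and made no call after the others. The list had 4 members higher and 0 lower after shCon EVs, 4 higher and 1 lower after shCr EVs, and 1 higher and 6 lower after CrOE EVs. Over all genes the shares higher and lower were 18% and 20.2%, 18.4% and 18.8%, and 36.7% and 37% in the same order. Without untreated replicate 2 the lower counts were 1 after shCon EVs and 2 after shCr EVs, the latter also without shCr EV replicate 1. Mmp2, which can cleave Cxcl12 and Ccl7, rose by 1.26 and 1.06 with shCon and shCr EVs and fell by 2.36 with CrOE EVs.

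All 22 genes listed for the NF-kB pathway were tested. After CrOE EVs 6 were higher and 12 lower, with a median log2 fold change of -0.18 (0.01 over all genes), where 36.7% of all genes were higher and 37% lower. After shCon EVs 6 were higher and 3 lower (18% and 20.2% of all genes), and after shCr EVs 6 were higher and 2 lower (18.4% and 18.8%); the last higher count was 12 without shCr EV replicate 1 and 3 in a model of those 2 groups. The total called in this list lay near the share over all genes in each of these comparisons. Il1r1, the signalling receptor of interleukin-1, was at 104 ± 10.9 CPM with no EVs, 45.2 ± 1.28 with shCon EVs, 60.8 ± 6.31 with shCr EVs and 9.11 ± 0.656 with CrOE EVs. Nfkbia, the NF-kB inhibitor that NF-kB itself induces, was at 82.1 ± 3.16, 69.0 ± 1.18, 90.6 ± 2.04 and 23.3 ± 1.66 CPM in the same order. Between shCr and shCon EVs 2 of the 22 were called, where 8.73% of all genes were, and both were higher after shCr EVs (Il1r1 0.43, SE 0.09, adjusted p = 0.00985; Nfkbia 0.39, SE 0.06, adjusted p = 0.000846). Bcl3, also of this list, fell by 2.05 after CrOE EVs (SE 0.14, adjusted p = 2.08e-08).

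All 16 genes of interferon signalling were tested. After CrOE EVs 12 were lower and 1 higher, with a median log2 fold change of -0.65 (0.01 over all genes), where 37% of all genes were lower and 36.7% higher, and the higher count was 0 without untreated replicate 3 or CrOE EV replicate 1 or 2. After shCon EVs 5 were higher and 4 lower (18% and 20.2% of all genes), and after shCr EVs 5 were higher and 3 lower (18.4% and 18.8%). A model of the shCon EV and untreated groups alone gave 8 higher. Irf7, a factor that amplifies the interferon response, was at 81.2 ± 13.1 CPM with no EVs, 135 ± 13.0 with shCon EVs, 149 ± 26.9 with shCr EVs and 6.11 ± 1.09 with CrOE EVs. Irf7 rose with log2 fold changes of 0.73 for shCon EVs (SE 0.14, adjusted p = 0.0016) and 0.88 for shCr EVs (SE 0.14, adjusted p = 0.000401), and fell by 3.73 after CrOE EVs (SE 0.17, adjusted p = 5.04e-10). Stat2, a subunit of the factor that binds the ISRE, fell by 2.52 after CrOE EVs (SE 0.16, adjusted p = 1.42e-08). Cxcl10 was lower, as both genes were, after CrOE EVs and made no call after shCon or shCr EVs, where Irf7 was higher.

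Of 9 regulators of chemokine mRNA decay and stability, all tested, 1 was higher and 2 lower after shCon EVs, 1 was higher and 3 lower after shCr EVs, and 4 were higher and 4 lower after CrOE EVs. Over all genes 38.1%, 37.3% and 73.7% were called in these comparisons, and 3, 4 and 8 of the 9 listed. Without 1 library the lower count after shCon EVs was 1 (untreated replicate 3, shCon EV replicate 1 or 2) or 4 (untreated replicate 2, shCon EV replicate 3). Zfp36, which binds AU-rich elements and promotes decay of cytokine mRNA, fell by 1.29 after CrOE EVs (SE 0.13, adjusted p = 1.22e-06), with Zfp36l2 lower by a log2 fold change of -0.91 and Zfp36l1 by -0.82.

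**Figure D5:**
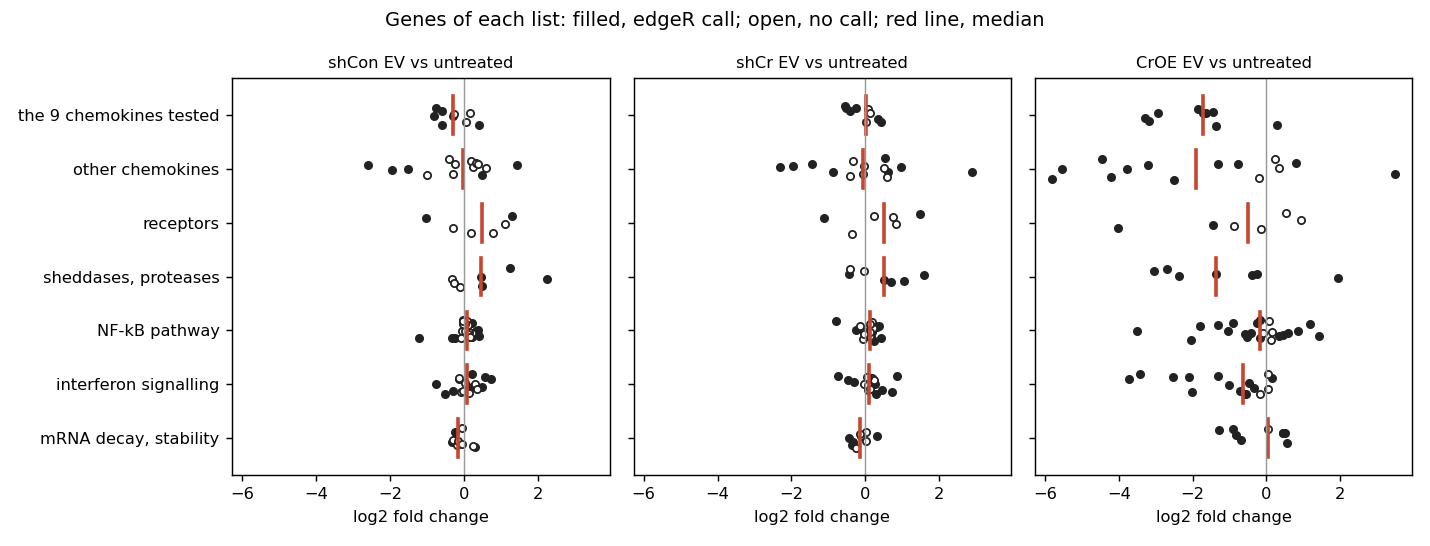
Log2 fold change of each tested gene of the 9 chemokines and the 6 related lists against untreated cells, by kind of EV, on 1 shared axis; filled points are calls, open points are not and red lines are list medians. In the CrOE EV comparison the medians are -1.72 for the 9 chemokines, -1.91 for the other chemokines and -0.18 for the NF-kB list. Some of the other chemokines passed the low-count filter only through groups where they were higher. That favours a fall after CrOE EVs, so their median is not to be ranked against the other lists.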

How the data were processed

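Bulk RNA-seq libraries of 3T3 cells were deposited by the authors as 1 table of estimated counts per gene symbol, without scaling; 39.8% of values were not whole. The submitters' processing notes name featureCounts and mm39, with no role or order; whether read strand was used in counting is not given in the sources used here. Estimates were rounded and filtered with filterByExpr (14279 genes). In R 4.3.3, edgeR 4.0.16 tested differences with glmQLFTest, its quasi-likelihood F-test, on all 12 libraries, TMM scaling and 1 mean per group (8 residual degrees of freedom, biological coefficient of variation 8.90%), adjusted by Benjamini-Hochberg within each of 6 comparisons; the call was an adjusted p under 0.05. Standard errors came from the F statistic. CPM is TMM-scaled. GENCODE M21 gave exon lengths, gene order, overlaps and shared 31-base stretches (at most 0.871% of any of the 10 genes).

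The members and lists were chosen with earlier results of these data known. Genes named were the members, the 2 genes closest to each over libraries among genes whose average log2 CPM was 1 or more, and from each list at most the 3 largest called changes at that level; other values printed for list genes (Ccl3, Ccl20, Adam10, Adam17, Nfkbia, Mmp2, Irf7, Ccl8, Cxcr2, Cxcr3) outside a comparison where the rule names them were chosen after their values were seen. Some list genes are counted in the totals and not reported here by themselves. Alternatives were median-of-ratios factors, DESeq2 1.42.0, no filter, 10 counts in every library, a replicate block, each replicate left out, a 2-fold minimum and 2-group models. On counts simulated for shCon EV against untreated cells (14013 genes), the test recovered 34 of 70 changes of 0.5 on the log2 scale, 48 of 62 of 1 and 63 of 64 of 2, with 8 false calls. Far fewer genes were changed there than the 38.1% called in the data, so these rates do not carry over to the data. Promoter windows were missing for Ccl2, Ccl5, Ccl7, Cxcl5 and Cxcl16 in the table used.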

Additional observations from a re-analysis of the deposited data

How the results depend on the processing

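Of 648 recomputed fold changes of the 9 chemokines, 622 kept their direction and side of the threshold, 14 lost the call, 3 gained it and 9 changed sign, all 9 without a call in the full model. With 1 library left out, these differences between shCr EV and untreated cells ranged from -0.039 to 0.13 for Ccl2 (-0.00063 without untreated replicate 2, -0.039 without shCr EV replicate 1), -0.16 to 0.098 for Cxcl1 (-0.025 and -0.16 without the same libraries) and -0.11 to 0.29 for Cxcl10 (-0.11 without shCr EV replicate 3). Between shCr and shCon EVs they ranged from -0.056 to 0.081 for Ccl5 (-0.017 without shCon EV replicate 1), -0.012 to 0.31 for Ccl7 and -0.095 to 0.15 for Cxcl5, each lowest without shCr EV replicate 1. With a minimum of 2-fold, which by construction admits fewer genes, no chemokine was called after shCon EVs or shCr EVs against untreated cells or between them (0 in each), and all genes called were 863, 897, 4245, 108, 3884 and 4223 for shCon EV, shCr EV and CrOE EV against untreated, shCr EV against shCon EV, CrOE EV against shCon EV and CrOE EV against shCr EV. shCr EV against shCon EV gave 1247 called genes, 641 in a model of the 2 groups and 632 to 1396 with 1 library left out (688, 632 and 666 without shCon EV replicate 1, 2 and 3); the cause was not tested. Deviations of same-numbered libraries from their group means correlated at r = -0.204 to 0.315 over 18 pairs. Different-numbered libraries gave r = -0.364 to 0.350 over 36 pairs, and 4 of 12 libraries correlated best with their own number. With 3 libraries per group, these values cannot show whether the numbers pair the samples. With a replicate block 6, 6, 9, 4, 8 and 8 chemokines were called, as without it, and 5691, 5529, 10657, 1281, 10511 and 10677 genes. Depth limits Cxcl14, which stayed under the floor.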
